A study of Homo sapiens with 6 samples.

Results

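The 10 genes described here encode proteins known to work with PRDM16: CTBP1, CTBP2, EHMT1, EHMT2, MED1, CEBPB, TLE3, ZNF516, CUL2 and HDAC1. They were taken by gene name from tables that list 38648 genes, which gave 16 lines, because EHMT2 is listed at 7 places and the other 9 genes at 1 place each. The tested cells were a human podocyte cell line, HPC, grown in high glucose and given a lentivirus that overexpresses PRDM16, and the cells set against them were the same line in high glucose with a negative control (NC) lentivirus. The genotype is given as wild type for both groups, each group has 3 RNA sequencing libraries, and the time in the titles is 24 h. No normal-glucose culture is part of the comparison, and the lentiviral promoter, its dose and the glucose concentration are not given. Whether the libraries of a group stem from separate cultures is not stated either, so a p-value here reflects library-to-library spread that may be technical.

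PRDM16 is a zinc finger transcription factor that, in mouse fat precursors, switches cells to the brown fat programme. It binds few targets alone and works through partners. CtBP corepressors are bound through a short peptide motif and shut off white fat genes, EHMT1 places repressive methyl groups on lysine 9 of histone H3, and MED1 and C/EBP-beta link PRDM16 to gene activation. Protein made from these transcripts was not measured. In bulk RNA, fewer cells that express a gene and less RNA per cell cannot be told apart.

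PRDM16 transcripts had 11, 18 and 24 counts in the PRDM16 libraries and 0 in each NC library. Library totals ran from 20147135 to 41280350 counts in the PRDM16 group and from 20969179 to 27655378 in the NC group. Of the podocyte markers, NPHS1, WT1 and PTPRO stayed under 10 counts in every library. PODXL stood at 49.0 to 49.5 TPM (a level per gene length, scaled to the same total in each library) in PRDM16 libraries and 52.9 to 62.7 TPM in NC libraries. SYNPO stood at 7.004 to 8.02 TPM with PRDM16 and 7.30 to 7.75 TPM with NC, and CD2AP at 62.8 to 83.5 TPM with PRDM16 and 81.9 to 134 TPM with NC. The 3 parietal epithelium markers, all present, summed to 515 to 638 TPM with PRDM16 and 622 to 706 TPM with NC. Mesangium and fibroblast markers summed to 8.56 to 10.8 TPM with PRDM16 and 9.09 to 10.5 TPM with NC. Most of that was PDGFRB, at 8.15 to 10.1 TPM with PRDM16 and 8.42 to 10.2 TPM with NC. DES reached at most 0.803 TPM and PDGFRA at most 1 count in any library. Endothelial markers summed to 0.178 to 0.312 TPM in PRDM16 libraries and 0.107 to 0.223 TPM in NC libraries, and tubule markers to at most 0.0658 TPM with PRDM16 and 0.111 TPM with NC, where LRP2, SLC12A1 and UMOD were at 0 counts in every library. Of the leukocyte markers, PTPRC stood at 0.140 to 0.199 TPM with PRDM16 and 0.169 to 0.256 TPM with NC, and CD68, a lysosomal protein, at 262 to 288 TPM with PRDM16 and 238 to 263 TPM with NC. The part of these differences in the results below was not tested. NC library 2 stood apart for several of the 10 genes, so values without it are given beside them.

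The partners differed widely in level. HDAC1, a histone deacetylase of several corepressor complexes, was the most abundant, with 167 ± 14.3 TPM over all libraries (SD, n = 6), and its range of 152 to 191 TPM overlapped that of the transcription factor CEBPB, at 141 ± 24.2 TPM. CEBPB stood above every value of the next gene, MED1, at 28.7 ± 5.75 TPM. The ranges of neighbours then overlapped down the order MED1, CTBP1 (23.6 ± 1.70 TPM), CUL2 (19.2 ± 3.57 TPM), CTBP2 (15.5 ± 2.34 TPM) and EHMT1 (11.7 ± 1.11 TPM), although MED1 stood above CTBP1, CUL2 above CTBP2 and CTBP2 above EHMT1 in 6 of 6 libraries each, and CTBP1 above CUL2 in 5. ZNF516 (7.85 ± 1.16 TPM) and TLE3 (4.63 ± 0.779 TPM) were the lowest, each apart from its neighbours. Every one of these 9 genes was far above PRDM16, which reached 0.163, 0.190 and 0.184 TPM in the PRDM16 libraries. In those libraries mean TPM was 25.6-fold that of PRDM16 for TLE3, 77.6-fold for CTBP2, 134-fold for CTBP1 and 876-fold for HDAC1. These ratios rest on the 11 to 24 counts of PRDM16 per library and its listed length of 8698 bases. How reads from the lentiviral insert were counted is not given. Over all 6 libraries the mean TPM of PRDM16 was above that of 0.0975% of the tested genes. TPM was used for these orders only: on that scale the median tested gene was 0.16 lower (log2) in PRDM16 libraries, and the direction of TLE3 turned (-0.02, against 0.10 in the fit below).

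**Figure D1:**
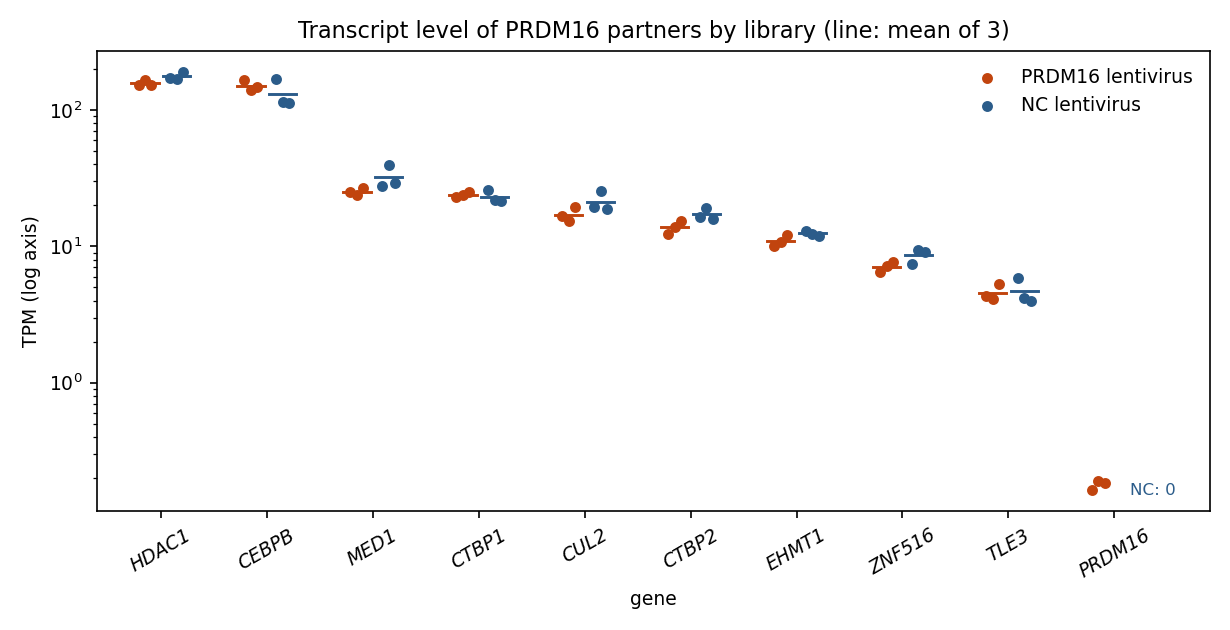
TPM (log axis) of the 9 partner genes listed at 1 place, and of PRDM16, with 1 point per library and a line at the mean of 3, PRDM16 lentivirus in orange and NC lentivirus in blue. PRDM16, listed at 0 in NC libraries, lies at 0.163 to 0.190 TPM, below every partner, of which TLE3 is the lowest at 4.63 TPM.

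The comparison asks whether the supply of partner transcripts differed between cells given the PRDM16 lentivirus and cells given the NC lentivirus. None of the 10 genes passed. In the edgeR quasi-likelihood test over 15381 genes, 0 of the 11 tested lines (the 9 genes listed once and 2 places of EHMT2) reached an adjusted p of 0.05, against 0.065% of all genes tested, or 10 genes (0.0585% higher and 0.0065% lower in PRDM16 libraries). DESeq2, which called 0.267% of all genes, and limma-voom, which called 0.026%, called 0 of them. Across the other alternative edgeR fits on all 6 libraries, which also called 0 of them, the share of all genes called was 0.052% with RLE factors, 0.0845% with upper-quartile factors, 0.4% with no count filter, 0.065% with the replicate number as a block, 0.0325% with a trend on GC content and length removed, 0.026% with both, and 0.12% with listings of a gene summed. With 1 library left out it was 0.044%, 0.0583% and 1.09% without NC library 1, 2 or 3 and 0.126%, 0.38% and 0.0968% without PRDM16 library 1, 2 or 3, and 1 place of EHMT2 passed in 1 of these fits, described below. At an unadjusted p under 0.05 there was 1 of the 11 lines, CEBPB, where the share over all genes was 16.0% (9.23% higher and 6.76% lower in PRDM16 libraries). EHMT2 summed over its places was also under 0.05 in a separate fit (edgeR unadjusted p = 0.0347), described below. Among the 9 genes listed once, 3 had a positive and 6 a negative log2 fold change, with a median of -0.06, and all genes tested had a median of -0.02. The 95% intervals of these 9 genes ran from -0.46 at the lowest to 0.68 at the highest, or from 0.728-fold to 1.60-fold, so that 2-fold changes in either direction lay outside all 9. Intervals that lay within 2-fold in both directions were found for 89.8% of all genes tested.

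**Figure D2:**
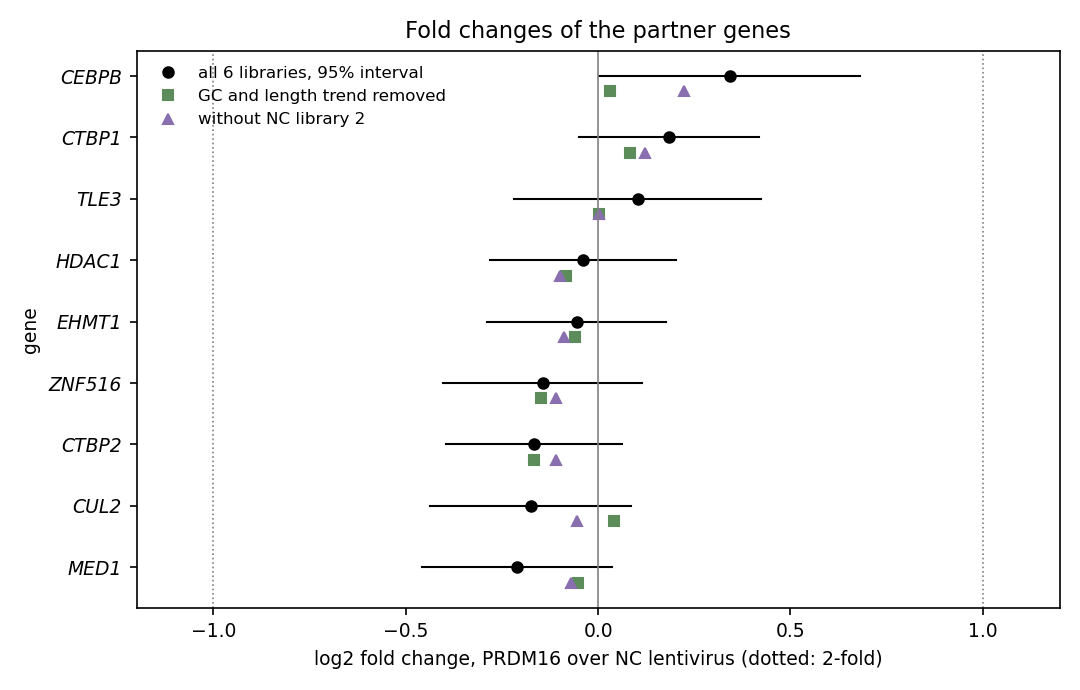
Log2 fold change (PRDM16 over NC lentivirus) of the 9 genes listed once, with 95% intervals from edgeR (black), the value with the GC and length trend removed (green squares) and the value without NC library 2 (purple triangles), with dotted lines at 2-fold. All intervals lie between -0.46 and 0.68, and CEBPB moves from 0.34 to 0.03 with the trend removed.

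The pair of CtBP corepressors leaned in opposite directions. CTBP1 (chromosome 4, 1211444 to 1250355, minus strand, hg38) had 96.9, 95.7 and 92.0 CPM (counts scaled to library size with TMM factors) in PRDM16 libraries, against 93.9, 75.4 and 81.2 CPM in NC libraries. The groups overlapped through NC library 1 alone, and the log2 fold change was 0.18 ± 0.11 (SE; edgeR adjusted p = 0.379), and 0.12 without NC library 2. CTBP2 (chromosome 10, 124984317 to 125161039, minus strand) had 63.9, 68.8 and 70.3 CPM in PRDM16 libraries, against 73.4, 81.2 and 73.4 CPM in NC libraries. It was the only one of the 9 whose groups did not overlap on this scale, with every PRDM16 library below every NC library (exact two-sided permutation p = 0.1, the smallest that 3 against 3 can give), a pattern found lower in PRDM16 for 8.77% of all genes tested and in the other direction for 12.2% (21.0% in all). Its log2 fold change was -0.17 ± 0.11 (SE; edgeR adjusted p = 0.404), and -0.11 without NC library 2. Exons of CTBP2 share 3416 bases, or 26.8% of its listed length, with ZRANB1 on the other strand, a deubiquitinase gene with a log2 fold change of -0.15 ± 0.12 (SE). The strand setting of the counting is not given, so reads of these genes in the shared bases cannot be told apart. The antisense transcript CTBP1-AS and the divergent CTBP1-DT share 608 and 196 exon bases with CTBP1.

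The ratio of CTBP1 to CTBP2 counts was chosen because the pair was seen to lean apart, so it restates those values and carries no test. It was 1.52, 1.39 and 1.31 in PRDM16 libraries and 1.28, 0.929 and 1.11 in NC libraries. Means were 1.41 ± 0.105 in PRDM16 libraries and 1.10 ± 0.175 in NC libraries (SD, n = 3 each), a log2 difference of 0.36. The difference between the fitted log2 fold changes ran from 0.23 without NC library 2 to 0.47 without NC library 1 when single libraries were left out, and was 0.25 with the GC and length trend removed. CTBP1 transcripts have a GC content of 62.0% and those of CTBP2 one of 56.8%, and GC content ran with fold change over all genes, as described below. The part of GC content in this ratio was not tested.

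The histone methyltransferases EHMT1 and EHMT2 act as a pair on lysine 9 of histone H3, and in mouse brown fat EHMT1 is the enzyme of the PRDM16 complex. EHMT1 (chromosome 9, 137619001 to 137836127, plus strand) had 49.6, 51.3 and 52.7 CPM in PRDM16 libraries, against 55.7, 50.3 and 53.8 CPM in NC libraries. The groups overlapped, and the log2 fold change of -0.06 ± 0.11 (SE) had a 95% interval from -0.29 to 0.18, and was -0.09 without NC library 2. Its exons share 511 bases with LOC651337 on the other strand, which had 1 to 6 counts per library.

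EHMT2 could be measured only in part. The files list it on chromosome 6 (31879759 to 31897698, minus strand) and on 6 alternate versions of the same region. Summed over these 7 places it had 70, 43 and 130 counts in PRDM16 libraries and 28, 48 and 47 in NC libraries. The gene LOC107986588, which shares 505 exon bases with EHMT2 on the other strand, had 0 counts in every library. The place on chromosome 6 held 3, 1 and 2 counts with PRDM16 and 1 in each NC library. How reads that match several places were counted is not given. The low level was shared by the region: the 54 protein-coding genes listed on chromosome 6 and at all 6 of the alternates had a median of 0.0240 CPM summed over places, where 809 protein-coding genes listed on chromosome 6 alone had a median of 9.55 CPM. At least 10 CPM was reached by 7 of the 54 and by 394 of the 809. The counts of EHMT2 therefore give no level to set beside EHMT1.

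Between the groups the sum over places was 3.64, 1.54 and 3.10 CPM in PRDM16 libraries, against 1.21, 1.66 and 2.25 CPM in NC libraries. PRDM16 library 2 lay below NC libraries 2 and 3, and the log2 fold change of 0.69 ± 0.30 (SE) did not pass (edgeR unadjusted p = 0.0347 and adjusted p = 0.278, with places summed for all genes). The sum was made of different places in different libraries. EHMT2-5, the fullest of them, had 2.45, 0.861 and 0.788 CPM in PRDM16 libraries and 0.347, 0.451 and 1.49 CPM in NC libraries, with a log2 fold change of 0.81 ± 0.79 (SE). It passed only without NC library 3 (1.68, edgeR adjusted p = 0.00631), a setting in which 1.09% of all genes tested passed. EHMT2-2 held 1.41 CPM in PRDM16 library 3 and 0.763 CPM in NC library 2, and at most 0.312 CPM in the other libraries.

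**Figure D3:**
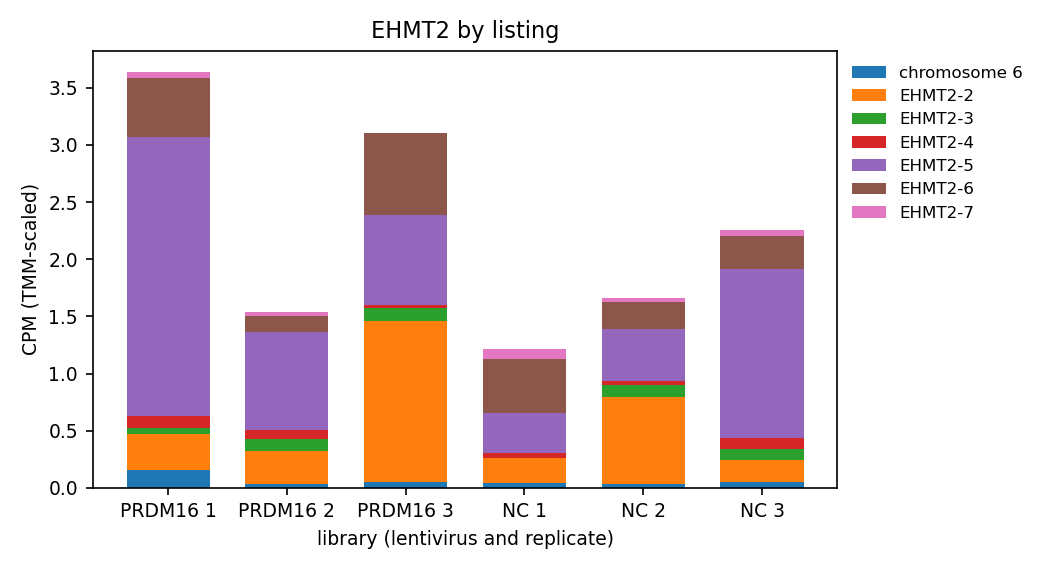
TMM-scaled CPM of EHMT2 in each library, stacked by the place at which the files list the gene. The place on chromosome 6 is the thin lowest band, and EHMT2-5 reaches 2.45 CPM in PRDM16 library 1 and 1.49 CPM in NC library 3.

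MED1 and CEBPB stand on the activating side. MED1, the Mediator subunit that nuclear receptors bind (chromosome 17, 39404285 to 39451281, minus strand), had 82.1, 76.0 and 78.4 CPM in PRDM16 libraries, against 79.5, 107 and 86.8 CPM in NC libraries. NC library 2 was above the other 5, and PRDM16 library 1 lay above NC library 1. The log2 fold change of -0.21 ± 0.12 (SE; edgeR adjusted p = 0.348) came to -0.07 without NC library 2 and to -0.31 without NC library 1. In plain CPM, without TMM scaling, the groups of MED1 did not overlap (exact two-sided permutation p = 0.1, the smallest possible), and neither did those of 12.0% of all genes tested in the same direction and 8.71% in the other (20.7% in all).

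CEBPB, a leucine zipper factor that forms a complex with PRDM16 in mouse myoblasts turned towards brown fat (chromosome 20, 50190583 to 50192690, plus strand), had the largest positive value of the 9. It had 142, 115 and 111 CPM in PRDM16 libraries, against 124, 79.3 and 87.0 CPM in NC libraries. All 3 PRDM16 libraries lay above NC libraries 2 and 3, and NC library 1 lay among them. The log2 fold change was 0.34 ± 0.16 (SE), with a 95% interval from 0.0028 to 0.68 and an edgeR adjusted p of 0.312. It came to 0.55 without NC library 1 and 0.22 without NC library 2, and passed in neither (edgeR adjusted p = 0.0823 and 0.790). The antisense gene CEBPB-AS1 shares 561 exon bases with CEBPB, or 26.6% of the listed length of CEBPB, and had 7 to 27 counts per library.

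TLE3 and ZNF516 have opposite roles in mouse fat. TLE3, a Groucho corepressor that competes with PRDM16 for the nuclear receptor PPARG (chromosome 15, 70047790 to 70098171, minus strand), had 11.1, 10.2 and 12.0 CPM in PRDM16 libraries and 13.1, 8.81 and 9.16 CPM in NC libraries. NC library 1 was the highest of all 6 and the other NC libraries the lowest, and the log2 fold change of 0.10 ± 0.16 (SE) was 0.30 without NC library 1 and 0.0030 without NC library 2. ZNF516, a zinc finger factor that binds the Ucp1 promoter with PRDM16 (chromosome 18, 76357682 to 76495255, minus strand), had 26.7, 28.5 and 28.2 CPM in PRDM16 libraries and 26.4, 31.96 and 34.0 CPM in NC libraries. NC library 1 was again out of line with its group, here the lowest of all 6, and the log2 fold change was -0.14 ± 0.13 (SE), -0.25 without that library, -0.11 without NC library 2 and -0.064 without NC library 3.

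HDAC1 and CUL2 serve many pathways. HDAC1 (chromosome 1, 32292083 to 32333628, plus strand) had 155, 161 and 136 CPM in PRDM16 libraries, against 149.6, 140 and 175 CPM in NC libraries. The groups overlapped throughout, with a log2 fold change of -0.04 ± 0.12 (SE) that turned positive without NC library 3 (0.06) or PRDM16 library 3 (0.03) and was -0.10 without NC library 2. CUL2, the scaffold of a ubiquitin ligase that with APPBP2 marks PRDM16 protein for breakdown (chromosome 10, 35008551 to 35126899, minus strand), had 35.9, 31.7 and 36.8 CPM in PRDM16 libraries and 36.2, 45.2 and 36.5 CPM in NC libraries. NC library 2 alone stood apart, and the log2 fold change of -0.18 ± 0.13 (SE) was -0.06 without it. On the other strand CREM shares 59 exon bases with CUL2, and ZNF516-AS1 shares 187 with ZNF516.

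The order of these fold changes followed base composition. Spearman's rho between log2 fold change and the GC content of the transcripts was 0.639 over the 13892 tested genes of known composition (0.447 without NC library 2), and 0.867 over the 9 partners (0.517 without NC library 2), given without a p because genes are not independent replicates and share their libraries. The ends of the range among the 9 were CEBPB, with a GC content of 66.2%, and CUL2, with 38.3%. Their first 90 coding bases are shown to make that contrast visible, with G and C in capitals, from the GENCODE transcripts on GRCh38 (CEBPB at chr20:50191034-50191123, plus strand, and CUL2 at chr10:35071228-35071317, minus strand).
CEBPB: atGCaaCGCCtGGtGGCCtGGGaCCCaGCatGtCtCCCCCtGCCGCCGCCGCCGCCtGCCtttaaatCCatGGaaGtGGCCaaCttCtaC
CUL2: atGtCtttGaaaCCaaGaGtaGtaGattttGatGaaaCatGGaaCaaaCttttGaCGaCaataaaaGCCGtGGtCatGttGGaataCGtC
G or C makes up 57 of the 90 bases of CEBPB and 33 of the 90 of CUL2, and 73.5% and 38.3% of their whole coding sequences.

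Set against genes of like composition, the partners took various places. In 5 equal bins of GC content the median log2 fold change of all genes went from -0.21 in the lowest bin to 0.24 in the highest. CUL2, MED1, HDAC1 and CTBP1 lay between the quartiles of their bins, and CEBPB lay above the upper quartile of its own (0.34 against 0.32). CTBP2, ZNF516, EHMT1 and TLE3 lay below the lower quartile, with 10.2%, 11.9%, 21.1% and 21.6% of the genes of their bins lower still. The bins took no account of length. With the trend on GC content and length removed from each library, CEBPB had a log2 fold change of 0.03, CUL2 one of 0.04 and MED1 one of -0.05, while CTBP2 (-0.17), ZNF516 (-0.15) and EHMT1 (-0.06) kept the values they had before. TLE3 stood at 0.0024, CTBP1 at 0.08 and HDAC1 at -0.08. None of the 9 passed in that fit (edgeR adjusted p from 0.731 for CTBP2 to 0.997 for TLE3). The part that base composition or NC library 2 has in these values was not tested.

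**Figure D4:**
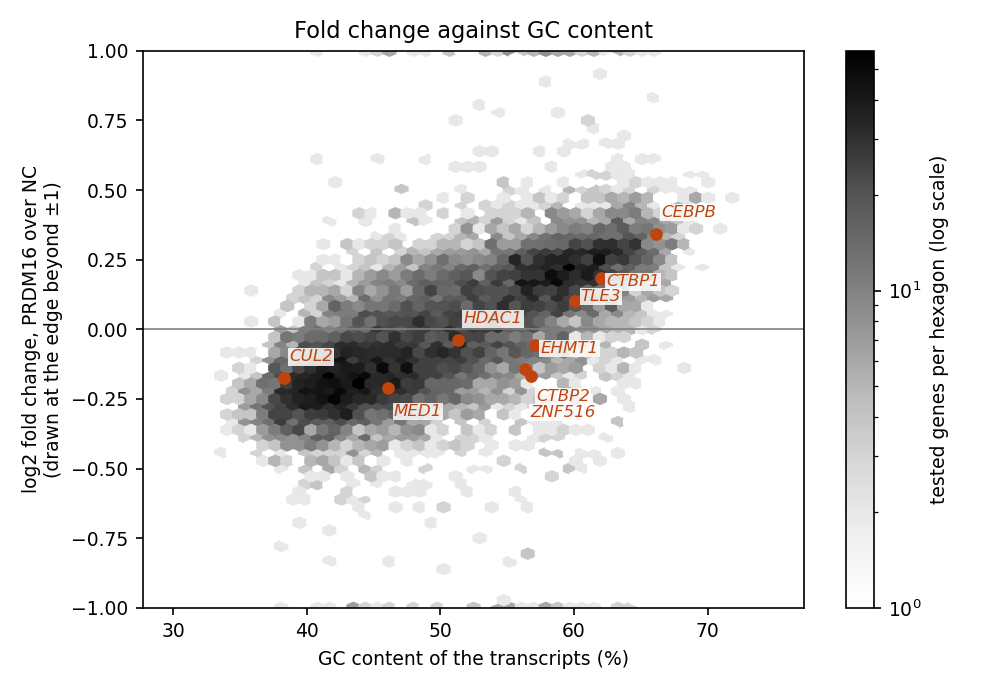
Log2 fold change (PRDM16 over NC lentivirus) against GC content for the 13892 tested genes with a GC value (grey hexagons, darker for more genes) and the 9 partners listed once (orange). CEBPB sits at the GC-rich, positive end (66.2%, 0.34) and CUL2 at the GC-poor end (38.3%, -0.18), while CTBP2 and ZNF516 sit below most genes of their GC content.

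Genes that work in the same complexes also gave no call. The 8 lists by role leave out the partners themselves. They were counted in edgeR, and 0 of their tested lines passed in any list, against 0.065% of all genes tested. In the CtBP list, of the corepressor complex and factors bound by CtBP, 17 of 18 genes were tested, with 1 higher and 3 lower at an unadjusted p under 0.05 and a median log2 fold change of -0.18. Over all genes tested 9.23% were higher and 6.76% lower at that threshold, which is the background for the counts of every list, and the median was -0.02. HIC1, a tumour suppressor that recruits CtBP, had 40.9 ± 3.53 CPM in PRDM16 libraries and 29.9 ± 3.49 CPM in NC libraries (SD, n = 3 each; log2 fold change 0.45, edgeR adjusted p = 0.222). PNN, a nuclear speckle protein, had a log2 fold change of -0.34 and LCOR, a ligand-dependent corepressor, one of -0.35, and without NC library 2 these were -0.13 and -0.15. HIC1 stood at 0.37 without NC library 2. With the GC and length trend removed HIC1 stood at 0.20, PNN at -0.17 and LCOR at -0.08. The list's median was -0.08 without NC library 2 and -0.04 with the GC and length trend removed.

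The list of histone H3 lysine 9 writers, readers and erasers, which shares WIZ with the CtBP list, had 16 tested genes, with 0 higher and 3 lower at an unadjusted p under 0.05 (9.23% and 6.76% over all genes) and a median log2 fold change of -0.19 (-0.07 without NC library 2 and -0.04 with the trend removed). CBX5, the heterochromatin protein HP1-alpha, had 186 ± 4.76 CPM in PRDM16 libraries and 230.1 ± 35.8 CPM in NC libraries (SD, n = 3 each; -0.31), SETDB2 had a log2 fold change of -0.35 and ATF7IP, the partner of SETDB1, one of -0.29. Without NC library 2 these were -0.17 for CBX5, -0.17 for SETDB2 and -0.16 for ATF7IP, and with the trend removed -0.06, -0.10 and -0.05. Both lists are poor in GC, with medians of 45.2% and 46.1% over their tested genes, against 50.2% over all genes.

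Mediator subunits centred on zero. All 32 genes were tested, at 33 places, with 2 higher and 4 lower at an unadjusted p under 0.05 and a median log2 fold change of -0.01. MED18 and MED22 were tested only at scaffolds off the numbered chromosomes, with the lowest log2 fold changes of the list (-1.60 and -1.07). For MED18 NC library 2 held 9.43 CPM, against at most 3.74 CPM in any other library. For MED22 NC library 1 held 20.9 CPM, against at most 4.91 CPM in any other. The kinase CDK19 had 23.3 ± 1.57 CPM in PRDM16 libraries and 30.9 ± 3.81 CPM in NC libraries (SD, n = 3 each; -0.40, edgeR adjusted p = 0.267). The tail subunit MED16 had a log2 fold change of 0.37 and the backbone subunit MED14 one of -0.29. Without NC library 2 MED14 stood at -0.17, MED16 at 0.25 and CDK19 at -0.32. With the GC and length trend removed MED14 stood at -0.05, MED16 at 0.10 and CDK19 at -0.17.

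In the C/EBP family, CEBPB left out, 4 of 5 genes were tested and the median log2 fold change was 0.33, with 1 higher at an unadjusted p under 0.05. CEBPD had 5.98 ± 0.318 CPM in PRDM16 libraries and 4.30 ± 0.491 CPM in NC libraries (SD, n = 3 each; log2 fold change 0.48, edgeR adjusted p = 0.291), CEBPA had a log2 fold change of 0.52 and DDIT3, a stress-induced member, one of 0.18. CEBPA was low, at a mean of 1.56 CPM in PRDM16 libraries and 1.08 CPM in NC libraries. With the GC and length trend removed CEBPD stood at 0.06, CEBPA at 0.23, DDIT3 at 0.07 (0.10 without NC library 2) and the list's median at 0.07. Without NC library 2 CEBPD stood at 0.39, CEBPA at 0.40 and the list's median at 0.24. By level, DDIT3 was the highest of the family, at 225 to 302 TPM over the 6 libraries, above CEBPB at 113 to 168 TPM. CEBPB had 10.8 to 15.7 times the TPM of CEBPD and 1.50 to 2.97 times that of CEBPG. Of the TLE family, TLE3 left out, all 5 were tested and 0 had an unadjusted p under 0.05. TLE5 is a short member that lacks the repeats of the others. It had 335 ± 5.78 CPM in PRDM16 libraries and 289 ± 20.7 CPM in NC libraries (SD, n = 3 each), with a log2 fold change of 0.21. TLE2 had a log2 fold change of 0.51 and TLE6 one of 0.31, each at a mean under 1 CPM (0.27 and 0.75 without NC library 2). TLE5 stood at 0.16 without NC library 2. With the GC and length trend removed TLE5 stood at 0.13, TLE2 at 0.29 and TLE6 at 0.11. TLE3 had 0.160 to 0.241 times the TPM of TLE1.

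Of the CUL2 ligase list 15 of 16 genes were tested, with 1 higher at an unadjusted p under 0.05 and a median log2 fold change of -0.03. ELOB, the elongin B adaptor, had 160.1 ± 31.1 CPM in PRDM16 libraries and 124 ± 21.0 CPM in NC libraries (SD, n = 3 each; 0.37, edgeR adjusted p = 0.298) and passed in edgeR without NC library 3, and the substrate receptors ZYG11B and FEM1A had log2 fold changes of -0.27 and 0.23 (-0.07 and 0.13 without NC library 2). ELOB stood at 0.34 without NC library 2. With the GC and length trend removed ELOB stood at 0.07, ZYG11B at -0.06 and FEM1A at 0.25. APPBP2, the receptor for PRDM16, was not among the 3 with the smallest p and is named for its role: it had 56.0 ± 2.55 CPM in PRDM16 libraries and 64.9 ± 12.3 CPM in NC libraries (SD, n = 3 each; -0.22, and -0.04 without NC library 2). Of the class I HDAC list all 22 were tested, with 1 higher and 1 lower at an unadjusted p under 0.05 and a median of -0.10. MBD3, a subunit of the NuRD deacetylase complex, had 230.3 ± 17.0 CPM in PRDM16 libraries and 183 ± 28.6 CPM in NC libraries (SD, n = 3 each; 0.33), the NuRD helicase CHD4 had a log2 fold change of -0.24 and HDAC8 one of -0.29. With the GC and length trend removed MBD3 stood at 0.10, CHD4 at -0.18 and HDAC8 at -0.18. Without NC library 2 MBD3 stood at 0.26, CHD4 at -0.20 and HDAC8 at -0.27. HDAC1 stood at 5.05 to 8.28 times the TPM of its paralog HDAC2, which is counted both in this list and in the CtBP list.

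Among 11 other partners and coregulators of PRDM16, 10 were tested, with 0 higher and 2 lower at an unadjusted p under 0.05 and a median log2 fold change of -0.08. PPARA, the receptor that turns on fatty acid oxidation, had a log2 fold change of -0.32 (-0.25 without NC library 2 and -0.24 with the trend removed). LRPPRC, a mitochondrial RNA-binding protein, had one of -0.30 (-0.15 without NC library 2 and -0.10 with the trend removed). The coactivator PPARGC1B had one of -0.39 (-0.40 without NC library 2 and -0.41 with the trend removed). Their edgeR adjusted p lay between 0.298 and 0.319. PPARG, the nuclear receptor through which PRDM16 acts in fat, had 20.1 ± 0.852 CPM in PRDM16 libraries and 18.9 ± 0.738 CPM in NC libraries (SD, n = 3 each; 0.09, and 0.22 with the trend removed) and is named for its role.

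**Figure D5:**
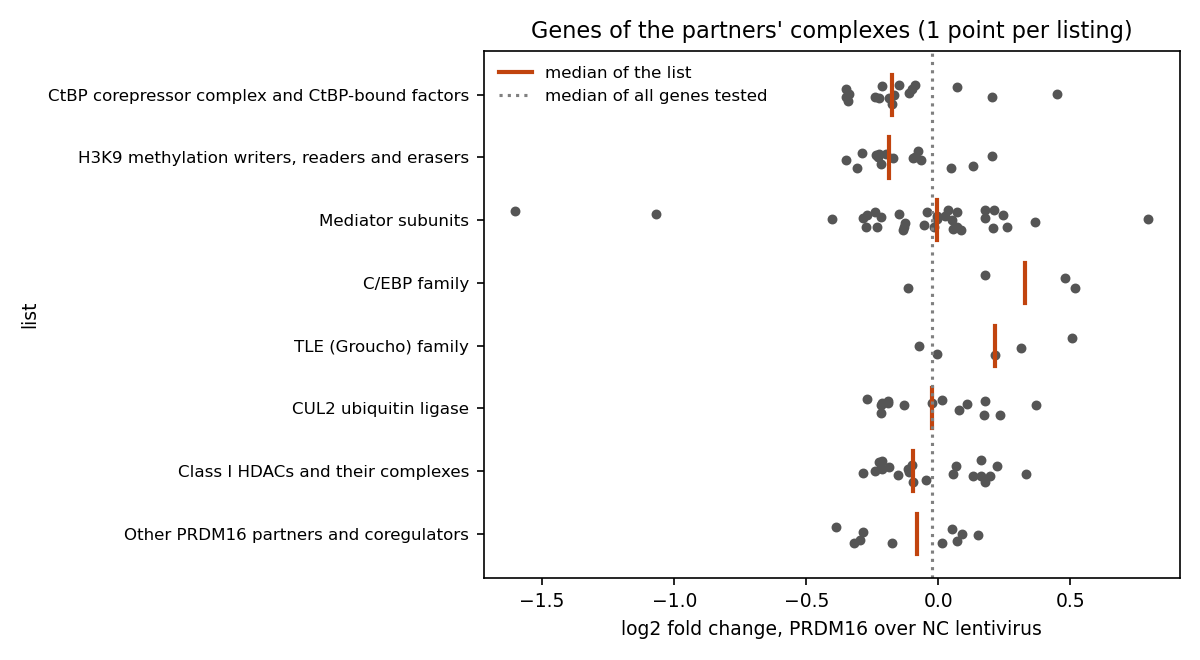
Log2 fold change (PRDM16 over NC lentivirus) of the tested genes in 8 lists of the partners' complexes, 1 point per place in the files, with the list's median in orange and the median of all genes tested (-0.02) dotted. Medians run from -0.19 for the histone H3 lysine 9 list to 0.33 for the C/EBP family, and no point passed the test.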

How the data were processed

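The authors deposited 1 table per library with raw read counts, TPM and FPKM per gene, per the file headers, on hg38, per the submitters' processing notes. The deposited TPM and FPKM values follow from the counts and listed lengths. RNA was captured on oligo(dT) beads, per the labels' protocols; the sources used here do not give the aligner, counting tool, strand setting or annotation. Lines of 7 genes, broken over several lines, were rejoined. Groups and replicate numbers came from titles. Replicates differed beyond sampling noise (chi-square per degree of freedom 11.5 to 34.5), and each counted as 1 sample.

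Counts were tested in edgeR 4.0.16 (R 4.3.3; robust quasi-likelihood fit, TMM factors, minimum count 10 and minimum total 15), which left 15381 genes. Passing means an adjusted p (Benjamini-Hochberg) under 0.05. The common biological coefficient of variation was 0.146. The fit was also run on simulated counts drawn without a GC trend, and no result here rests on that run. SE is the fold change over the root of F, and 95% intervals use the fit's degrees of freedom. Exact permutation tests used log2(plain CPM + 0.1). GC content is the median over GENCODE transcripts of a gene name, and its removal used splines with 5 degrees of freedom on GC content and length as offsets. Gene types came from RefSeq (GRCh38.p14). The alternatives were DESeq2 1.42.0, limma 3.58.1 (voom), other factors, no count filter, a replicate block, summed listings and leaving out each library. Intervals cover counting error and the spread of these samples only.

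The 10 genes, the lists and the tests were chosen with earlier results of these data known. Text names all 10 genes, the 3 genes of each list with the smallest p, overlapping genes and the closest paralogs. CEBPG, APPBP2, PPARG, MED18 and MED22 fall outside that rule and were picked once values had been seen. Some podocyte markers are not reported here.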

Additional observations from a re-analysis of the deposited data

How the results depend on the processing

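Of the 9 genes listed once, 0 passed in any of 15 alternatives, with the lowest adjusted p at 0.0823 (CEBPB, edgeR without NC library 1). CTBP1 stayed between 0.08 and 0.27, CTBP2 between -0.20 and -0.11, CEBPB between 0.03 and 0.55, MED1 between -0.31 and -0.05 and ZNF516 between -0.25 and -0.064 (log2 fold change). Signs turned for CUL2 with the GC and length trend removed (0.042, and 0.041 with the replicate block as well), for HDAC1 when single libraries were left out (-0.10 to 0.061, the highest without NC library 3, and 0.029 without PRDM16 library 3) and for EHMT2-6 likewise (-0.11 to 0.94). The count of members called was 0 to 1 when single libraries were left out, the 1 being EHMT2-5 without NC library 3 (0.16 to 1.68 over the libraries left out). With single libraries left out, the median of the 9 genes ran from -0.0875 without PRDM16 library 2 to -0.0450 without NC library 3. Genes passing over the whole table, 10 in the fit reported, numbered 41 in DESeq2, 4 in limma-voom, 107 with no count filter, 5 with the GC and length trend removed, 4 with the replicate block as well, 18 with listings summed, and 7 to 173 when single libraries were left out (NC library 3 gave the 173, and leaving out PRDM16 library 1, 2 or 3 gave 20, 59 or 15). The cause was not tested.

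With the replicate block alone 10 genes passed and 0 of the members did. Same-numbered libraries did not deviate together (Pearson's r of deviations 0.09, -0.10 and -0.13 for numbers 1, 2 and 3), so the numbers were not used to pair the samples. EHMT2 had at most 130 counts in a library over all its places, and the cause of that low count was not tested.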
